A study of Homo sapiens with 6 samples.

Results

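The ZBTB genes encode transcription factors that carry a BTB (POZ) domain at one end and C2H2 zinc fingers at the other. They were followed here in Y79 cells, an established human retinoblastoma line, as the rows of the deposited gene table whose symbol starts with ZBTB and a number, together with BCL6, BCL6B, HIC1 and HIC2, which have the same build under older names. The rule found 46 genes of 17013 with values. All 46 encode proteins in the GENCODE 29 annotation. ZBTB8OS is a neighbour of ZBTB8A named for its position and encodes archease, a helper of the tRNA ligase complex, so it is no zinc finger gene and counts are also given without it.

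In this protein family the zinc fingers choose the DNA sequence, and the BTB domain lets molecules pair and recruits corepressors such as NCOR1 and BCOR, which bring histone deacetylases. Many members act as repressors that set cell identity, best known from blood cells, and several regulate the cell cycle inhibitor gene CDKN1A. ZBTB17, also called MIZ1, binds MYC proteins directly, and a MYC protein bound to it turns it from an activator into a repressor.

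RNA selected for poly(A) tails was sequenced after the cells received an shRNA against MYCN (3 libraries, genotype label MYCN knockdown) or a control shRNA (3 libraries, genotype label MYCN wild-type), all in the same labelled batch. Y79 is known to carry an amplified MYCN gene, in both groups alike. The series text calls the libraries independent biological replicates. How many hairpins were used, and their sequences, was not stated in those sources. The 6 libraries held 15490263 to 16078416 estimated counts, and a level below is in CPM (counts per 1000000 counts) after TMM scaling between libraries.

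MYCN, the target, had 2413, 2284 and 2195 CPM with the MYCN shRNA, against 3046, 3128 and 2876 CPM with the control shRNA. It was lower in every MYCN shRNA library and stayed abundant, with a log2 fold change of -0.39 ± 0.043 (SE; edgeR quasi-likelihood test, adjusted p = 8.03e-11). Of 9 markers of the photoreceptor lineage that retinoblastoma cells carry, all 9 were tested, 7 rose and 2 fell. The shares were 77.8% and 22.2%, beside 38.0% and 37.9% of all tested genes, and their median log2 fold change was 1.26. Their summed level was 1740 to 1796 CPM with the MYCN shRNA and 1892 to 2004 CPM in controls. The 2 that fell were OTX2, at 679.5 CPM against 1078 CPM in controls, and NEUROD1, at 261.5 CPM against 437.8 CPM. Markers of other cells were low: of the lymphoid markers, PTPRC averaged 0.0801 CPM against 0.0693 CPM and CD79A 0.0603 CPM against 0.0450 CPM, and 2 endothelial markers summed to 0.238 to 0.362 CPM against 0 to 0.0693 CPM. Fibroblast markers summed to 5.003 to 6.43 CPM against 2.22 to 2.67 CPM and pigment epithelium markers to 11.01 to 12.7 CPM against 3.33 to 3.53 CPM. The Müller glia list summed to 648 to 671 CPM against 830 to 849 CPM, nearly all of it GLUL, while RLBP1 averaged 0 CPM against 0.0438 CPM and SOX9 0.885 CPM against 0.113 CPM. Whether these markers have a part in the results below was not tested.

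As many ZBTB genes rose as fell, in shares close to those of all tested genes. Of the 46 genes, 42 had enough counts to be tested, 15 rose, 15 fell and 12 did not pass (edgeR quasi-likelihood test, adjusted p under 0.05 over 12819 genes). Those shares were 35.7% higher and 35.7% lower, against a background of 38.0% and 37.9% of all tested genes, or 75.8% called in either direction. Without ZBTB8OS the counts were 15 higher and 14 lower of 41. The median log2 fold change was 0.02 over the tested members and 0.005 over all tested genes. The libraries of the groups did not overlap for 31 of 42 members, which is 73.8%, against 76.8% of all tested genes (38.6% higher and 38.2% lower). Because cells of a given kind were not separated, fewer expressing cells and less RNA per cell cannot be told apart in any of these values.

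The even split rests on the scaling. With library sizes alone the median of all tested genes was 0.19 and that of the members 0.21 on the log2 scale, and 23 members were called higher and 10 lower, or 54.8% and 23.8%, against 51.5% and 26.1% of all tested genes. Most of the members' changes were small. Of the 30 called members, 24 had a log2 fold change between -0.7 and 0.7, while 4 members were called at 2-fold or more higher and 1 at 2-fold or more lower. These were 9.52% and 2.38% of tested members, beside 9.24% and 5.25% of all tested genes. ZBTB8B, ZBTB7C, ZBTB12 and ZBTB38 were the higher ones and ZBTB16 the lower one. Tested against a minimum change of 1.5-fold, 5 members were higher and 1 lower. These were 11.9% and 2.38% of tested members, beside 12.9% and 10.001% of all tested genes.

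**Figure D1:**
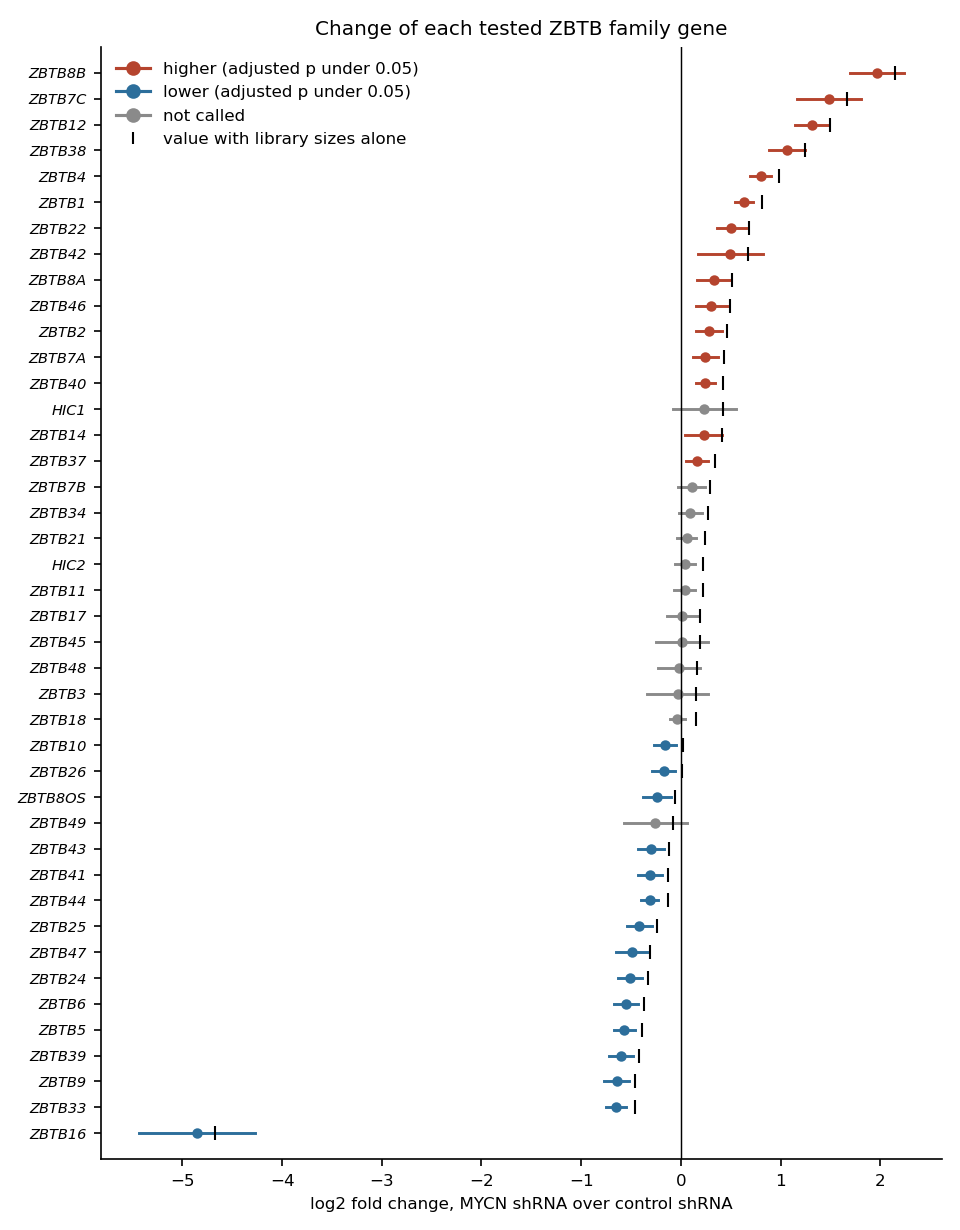
Log2 fold change, MYCN shRNA over control shRNA, of the 42 tested ZBTB family genes; dots are edgeR estimates with their 95% intervals, red higher, blue lower, grey not called, and black ticks are the estimates with library sizes as the only scaling. ZBTB16 stands alone at -4.85, ZBTB8B leads the other end at 1.97, and most genes lie close to 0 on either side.

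**Figure D2:**
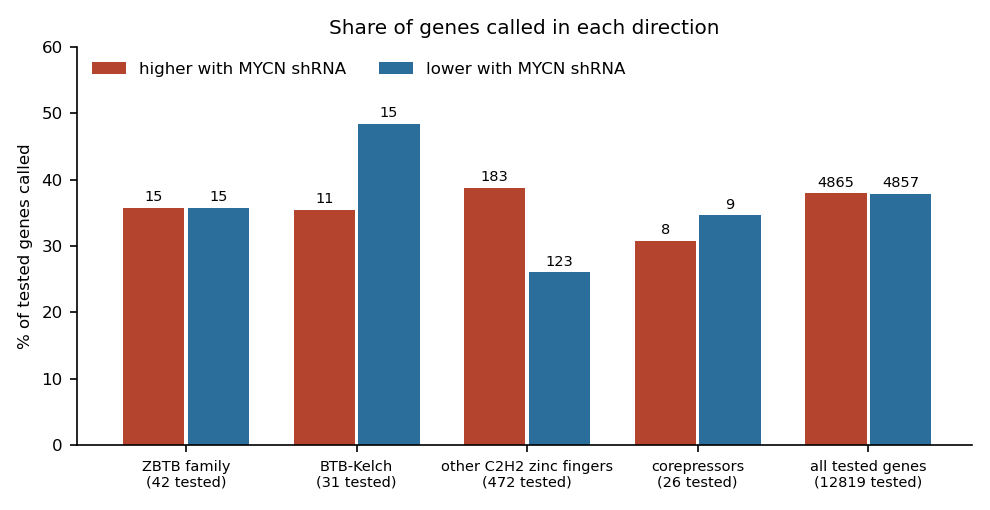
Bars give the percent of tested genes called higher (red) or lower (blue) with the MYCN shRNA, with the number of genes above each bar, for the ZBTB family, BTB-Kelch genes, other C2H2 zinc finger genes, corepressors and all tested genes. The ZBTB bars stand at 35.7% and 35.7%, next to 38.0% and 37.9% for all tested genes.

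The promoters of the members were searched for CACGTG, the E-box that MYC proteins bind together with MAX, since it is the DNA sequence most directly tied to the targeted factor. RefSeq promoter windows (250 bases before to 50 after the gene start, GRCh38.p14) were found for 38 of the 46 members. CACGTG, which reads the same on both strands, lay in 8 of these 38 windows (21.1%), against 9.41% of 13399 windows of genes in the table. Of the 8 genes ZBTB1 and ZBTB37 rose, ZBTB24 and ZBTB8OS fell, ZBTB11, ZBTB21 and ZBTB49 did not pass, and ZBTB32 was not tested. Over all tested genes with a window, 28.3% of the 1059 with CACGTG rose and 46.2% fell, against 38.8% and 37.1% of the 9293 without it. Of the 28 tested members with a window that lacks CACGTG, 12 rose and 9 fell. Members with these letters thus went in both directions, and 4 windows are shown because their genes rose, fell or did not pass. They are printed 5′ to 3′ with CACGTG in capitals.
ZBTB1 (chr14:64503637-64503936, plus strand): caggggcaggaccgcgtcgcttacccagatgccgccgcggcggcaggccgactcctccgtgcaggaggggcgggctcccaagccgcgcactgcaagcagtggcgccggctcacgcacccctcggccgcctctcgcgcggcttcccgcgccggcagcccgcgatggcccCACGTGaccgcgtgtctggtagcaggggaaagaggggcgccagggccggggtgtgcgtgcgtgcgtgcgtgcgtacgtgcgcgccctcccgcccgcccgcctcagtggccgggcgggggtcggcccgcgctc
ZBTB37 (chr1:173868130-173868429, plus strand): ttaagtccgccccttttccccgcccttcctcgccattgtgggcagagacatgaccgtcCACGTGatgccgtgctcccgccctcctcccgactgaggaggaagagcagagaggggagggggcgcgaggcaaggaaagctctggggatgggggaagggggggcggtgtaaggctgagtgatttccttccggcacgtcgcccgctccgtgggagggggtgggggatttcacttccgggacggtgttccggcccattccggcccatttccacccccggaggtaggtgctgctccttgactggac
ZBTB24 (chr6:109483170-109483469, minus strand): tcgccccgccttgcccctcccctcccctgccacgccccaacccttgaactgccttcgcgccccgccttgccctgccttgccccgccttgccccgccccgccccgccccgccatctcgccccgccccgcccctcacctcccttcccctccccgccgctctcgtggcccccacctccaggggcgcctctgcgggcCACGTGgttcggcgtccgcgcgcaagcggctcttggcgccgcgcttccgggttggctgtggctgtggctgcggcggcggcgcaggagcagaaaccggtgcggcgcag
ZBTB21 (chr21:42010311-42010610, minus strand): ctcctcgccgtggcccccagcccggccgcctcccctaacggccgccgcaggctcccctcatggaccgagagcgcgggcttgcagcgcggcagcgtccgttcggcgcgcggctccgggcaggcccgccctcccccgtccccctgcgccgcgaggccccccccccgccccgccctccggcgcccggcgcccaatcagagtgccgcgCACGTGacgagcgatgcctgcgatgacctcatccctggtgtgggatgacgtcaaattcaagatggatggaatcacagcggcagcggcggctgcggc
The capitals begin 82 bases before the start of ZBTB1, 192 before that of ZBTB37, 57 before that of ZBTB24 and 46 before that of ZBTB21. ZBTB37 changed by 0.16 ± 0.056 on the log2 scale (adjusted p = 0.00795) and ZBTB21 of 0.06, with a 95% interval of -0.03 to 0.15 (edgeR quasi-likelihood test). A match to these letters is a description of the window and not a site shown to be bound. The 8-letter sequence TCCTGCNA, which the Kaiso protein encoded by ZBTB33 can bind without methylation, lay on either strand in 2 of the 38 windows, those of ZBTB7C and ZBTB47, or 5.26% against 4.13% of all windows.

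ZBTB17, at chromosome 1 (15941869 to 15976132, minus strand, GRCh38), did not pass. It measured 22.6, 20.8 and 19.7 CPM with the MYCN shRNA, against 22.3, 20.8 and 19.4 CPM with the control shRNA. The libraries of the groups overlapped almost completely. Its log2 fold change was 0.01 with a 95% interval of -0.14 to 0.17 (edgeR quasi-likelihood test, adjusted p = 0.899), and 0.19 with library sizes alone (adjusted p = 0.0265). Of 12 listed genes that bind ZBTB17, MYC or MAX or are targets, MYCN among them, 11 were tested, 5 rose and 4 fell (45.5% and 36.4%), beside the background of 38.0% and 37.9%. MYC, the paralogue of MYCN, had 3.07 ± 0.75 CPM with the MYCN shRNA, against 0.380 ± 0.029 CPM with the control shRNA (log2 fold change 2.99, adjusted p = 6.21e-12). MAX, the obligate partner of MYC proteins, fell by 0.65. CDKN1A, which ZBTB17 activates and MYC represses through it, reached 694 ± 40.7 CPM with the MYCN shRNA, against 303 ± 10.8 CPM with the control shRNA (SD, n = 3 each). BCL2, which restrains apoptosis and is another gene that ZBTB17 activates, stood at 89.4 ± 1.8 CPM against 26.3 ± 0.99 CPM in controls. NPM1, a nucleolar protein that acts as a ZBTB17 coactivator, fell by 0.85 and TOPBP1, which binds ZBTB17 during the DNA damage response, by 0.63 on the log2 scale. CDKN2B, a classical ZBTB17 target, had too few counts to be tested.

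The 4 other members listed here for regulating CDKN1A transcription did not move together. ZBTB4, a repressor of CDKN1A, rose, as given below with the methylated DNA readers. ZBTB2, also described as a repressor of CDKN1A, had 33.7, 34.1 and 33.5 CPM with the MYCN shRNA, against 27.0, 27.3 and 28.98 CPM in controls. It rose by 0.28 ± 0.063 on the log2 scale (adjusted p = 9.95e-05). ZBTB5, a further repressor of CDKN1A, fell. It had 46.8, 46.2 and 46.7 CPM with the MYCN shRNA, against 70.7, 69.9 and 66.3 CPM with the control shRNA, a log2 fold change of -0.57 ± 0.052 (edgeR quasi-likelihood test, adjusted p = 4.46e-13). The groups of ZBTB5 libraries lay far apart relative to their spread. ZBTB49, an activator of CDKN1A, measured 3.54 ± 0.41 CPM against 4.23 ± 0.16 CPM in controls and did not pass (log2 fold change -0.26, 95% interval -0.58 to 0.06).

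The 3 members that bind methylated DNA differed among themselves, with ZBTB33 lower and ZBTB4 and ZBTB38 higher. ZBTB33 encodes Kaiso, a repressor that recruits NCOR1 and binds p120 catenin. It had 68.0, 64.7 and 64.0 CPM with the MYCN shRNA, against 103, 95.9 and 110 CPM with the control shRNA. Every MYCN shRNA library lay below every control library, with a log2 fold change of -0.65 ± 0.050 (edgeR quasi-likelihood test, adjusted p = 2.55e-15). ZBTB4 had 76.6, 78.7 and 75.5 CPM with the MYCN shRNA, against 44.4, 42.6 and 45.6 CPM with the control shRNA. The groups did not overlap, and ZBTB4 rose by 0.80 ± 0.052 on the log2 scale (adjusted p = 8.42e-18). ZBTB38 had 21.2, 20.2 and 20.4 CPM against 10.6, 9.27 and 9.64 CPM in controls, and rose, with a log2 fold change of 1.06 ± 0.089 (adjusted p = 3.01e-14). In controls ZBTB33 was thus the most abundant of the 3 transcripts per length, at 19.3 CPM per kilobase of exon against 7.21 for ZBTB4 and 1.249 for ZBTB38. With the MYCN shRNA ZBTB33 and ZBTB4 stood side by side, at 12.3 and 12.6 CPM per kilobase, and ZBTB38 at 2.61.

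Methylated DNA readers of other families were set beside these. Of 8 listed genes 5 rose and 2 fell (62.5% and 25.0%, beside 38.0% and 37.9% of all tested genes), and the median log2 fold change was 0.22, beside 0.005 over all tested genes. UHRF1, which guides maintenance methylation, measured 231 ± 7.6 CPM against 181 ± 4.6 CPM in controls, and MBD1, a methyl-CpG binding repressor, 82.8 ± 1.0 CPM against 61.3 ± 2.6 CPM (SD, n = 3 each). MBD4, a DNA glycosylase, fell by 0.44. CTNND1, which encodes p120 catenin, the partner of Kaiso, fell by 0.18, but its log2 fold change was 0.01 with library sizes alone (adjusted p = 0.902).

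BCL6 and BCL6B, the germinal centre repressor of B cells and its closest relative, were listed at or near 0 counts in these Y79 libraries. BCL6 was listed at 0 counts in all 6 libraries. At 3 counts this allows at most 0.0603 CPM over the MYCN shRNA group and 0.0672 CPM over the control group. These limits hold only if the counting could place reads on BCL6, which was not tested. BCL6B had 6, 2 and 3 counts with the MYCN shRNA, against 0, 1 and 0 counts with the control shRNA. Its sums of 11 and 1 counts give a ratio of 9.87 with an exact 95% counting interval of 1.43 to 425, and the gene was left out of the test for low counts. When no filter was applied, it was called higher (edgeR quasi-likelihood test, adjusted p = 0.0215). Of 18 genes described as BCL6 targets in B cells, 16 were tested, 6 rose and 5 fell (37.5% and 31.2%, close to the 38.0% and 37.9% of all tested genes), and their median on the log2 scale was 0.12. CCND2, a G1 cyclin gene, fell to 125 ± 1.4 CPM with the MYCN shRNA, against 217 ± 9.5 CPM in controls, and PDCD4, a translation inhibitor gene, fell by 0.55, while CDKN1A and BCL2, given above, had the smallest p-values among those that rose.

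The HIC genes, named for hypermethylated in cancer, did not pass the test. HIC1, a tumour suppressor that represses SIRT1, was low, with 4.52, 5.85 and 4.51 CPM with the MYCN shRNA, against 3.28, 4.60 and 4.78 CPM with the control shRNA. The groups overlapped, and the log2 fold change was 0.24 with a 95% interval of -0.08 to 0.55 (edgeR quasi-likelihood test, adjusted p = 0.168). Its exons overlap those of SMG6 on the opposite strand over 29.8% of their length in GENCODE 29. No source states whether the counts used strand. Both genes had fractional counts in all 6 libraries, and their decimals completed each other. In MYCN shRNA replicate 1, for example, HIC1 had 75.71 counts and SMG6 had 512.29. Reads were thus divided between these genes, and the HIC1 level is in part an estimated share. HIC2, a repressor of BCL11A in red cell precursors, had 62.4, 61.3 and 63.4 CPM with the MYCN shRNA, against 60.9, 60.6 and 59.8 CPM with the control shRNA. The HIC2 groups did not overlap but the difference was small, at 0.05 on the log2 scale with a 95% interval of -0.06 to 0.15 (adjusted p = 0.409). With library sizes alone both passed, HIC1 at 0.42 (adjusted p = 0.0170) and HIC2 at 0.23 (adjusted p = 1.05e-04). BCL11A fell to 20.02 ± 1.8 CPM, against 43.2 ± 1.2 CPM in controls. Of 8 listed HIC1 targets, 5 were tested, of which 3 rose and 2 fell, where 75.8% of all tested genes were called in either direction: the chemokine receptor gene CXCR4 rose by 1.15, E2F1 by 0.20 and SIRT1 by 0.12, while the cyclin gene CCND1 fell by 2.26 and the ephrin receptor gene EPHA2 by 0.30.

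ZBTB16, which encodes the repressor PLZF, known from innate-like T cells, germline stem cells and the PLZF-RARA fusion of promyelocytic leukaemia, changed most of all members. It had 0.238, 0.121 and 0.183 CPM with the MYCN shRNA, against 5.65, 4.74 and 5.96 CPM with the control shRNA. In counts these were 4, 2 and 3 against 86, 71 and 86, so the MYCN shRNA libraries were close to the floor while the controls were low but clearly above it. ZBTB16 fell by 4.85 ± 0.29 on the log2 scale (edgeR quasi-likelihood test, adjusted p = 4.92e-19), and the summed counts gave a ratio of 0.0332 with an exact 95% counting interval of 0.015 to 0.0641. The gene lies on chromosome 11 (114059593 to 114250676, plus strand, GRCh38), and no exon overlap with another coding, antisense or lincRNA gene was found in GENCODE 29.

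The other members with roles in lymphoid and myeloid cells went in both directions. ZBTB1, needed for lymphoid development in mice, had 105.5, 103.7 and 105.1 CPM with the MYCN shRNA, against 67.1, 67.7 and 67.5 CPM with the control shRNA. The libraries of each group were nearly equal and the groups far apart, and ZBTB1 rose by 0.64 ± 0.046 on the log2 scale (edgeR quasi-likelihood test, adjusted p = 2.58e-16). ZBTB25, its head-to-head neighbour, fell by 0.42 ± 0.063, with 27.9, 31.4 and 33.0 CPM against 41.2, 40.2 and 41.8 CPM in controls (adjusted p = 1.19e-07). Their starts lie 1501 bases apart on opposite strands of chromosome 14, and 507 exonic bases belong to both genes, which is 9.60% of the exonic bases of ZBTB1 and 4.15% of those of ZBTB25, so reads from that stretch cannot be assigned without strand. ZBTB46, a marker of classical dendritic cells, rose by 0.31 ± 0.078 (adjusted p = 5.13e-04). ZBTB7B, the regulator of CD4 T cell fate also called ThPOK, measured 29.6 ± 0.44 CPM against 27.5 ± 2.8 CPM in controls and did not pass (adjusted p = 0.155), but passed without control shRNA replicate 1 (0.17, adjusted p = 0.0414) and with library sizes alone (0.29). ZBTB32 had 8 counts over the MYCN shRNA libraries and 2 over the controls, a ratio of 3.59 with a counting interval of 0.716 to 34.7.

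**Figure D3:**
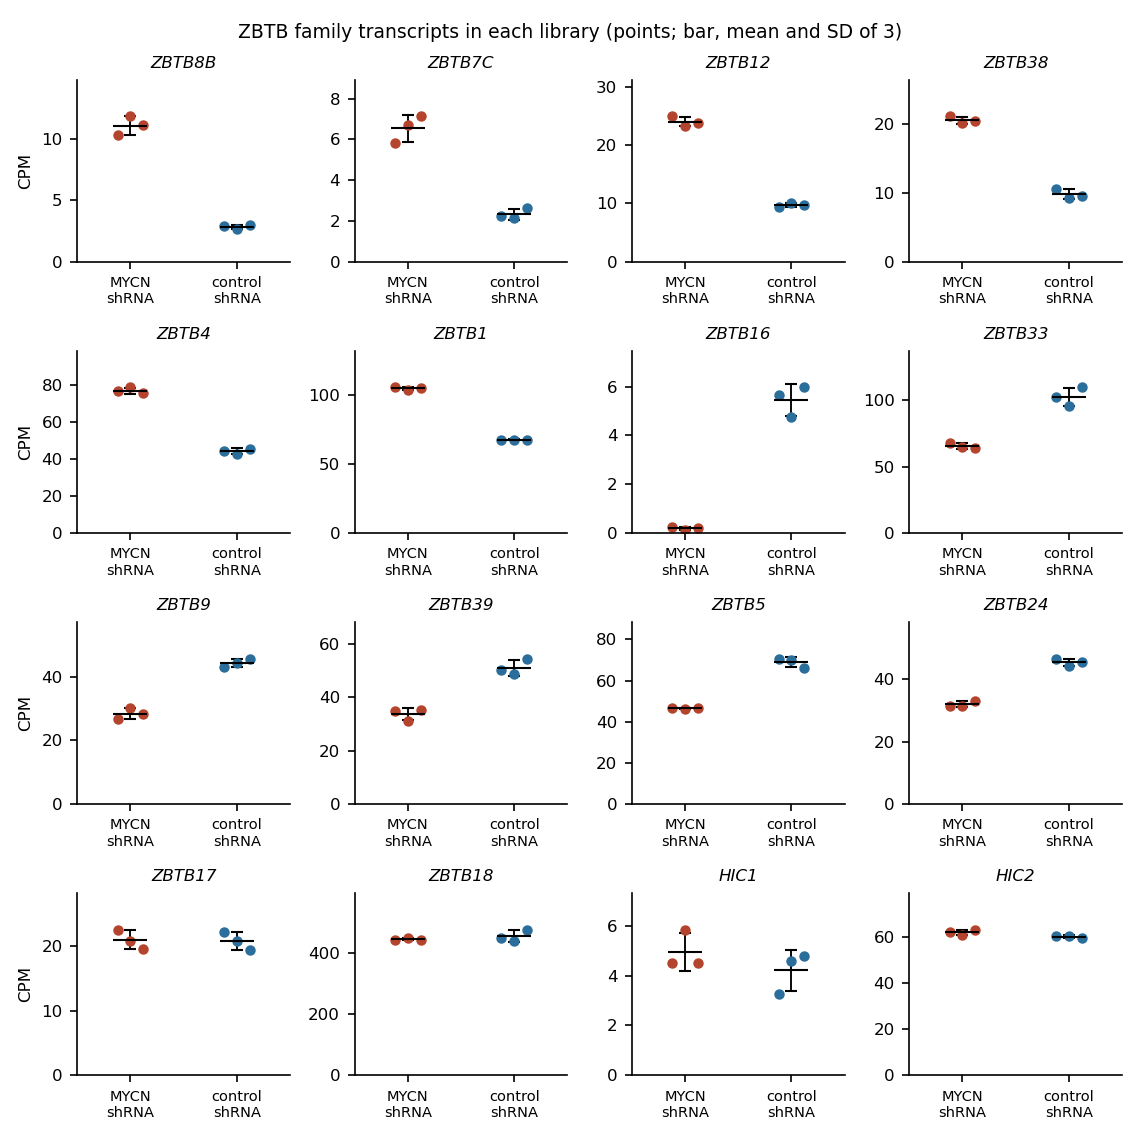
CPM in each library for 16 ZBTB family genes, MYCN shRNA (red) left of control shRNA (blue); points are libraries, and the bar with whiskers is the mean and SD of 3. ZBTB16 drops to 0.121 to 0.238 CPM, ZBTB8B, ZBTB7C, ZBTB12 and ZBTB38 stand at 2-fold or more of their controls, and ZBTB17, ZBTB18 and HIC1 overlap between the groups.

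The 3 ZBTB7 paralogues all had positive values, of which ZBTB7A and ZBTB7C passed. ZBTB7A, which encodes the proto-oncoprotein LRF and represses fetal globin genes, had 40.2, 39.6 and 37.9 CPM with the MYCN shRNA, against 35.4, 31.5 and 32.2 CPM with the control shRNA. The groups did not overlap, with a log2 fold change of 0.25 ± 0.061 (adjusted p = 3.70e-04). ZBTB7C had 5.83, 6.70 and 7.14 CPM with the MYCN shRNA, against 2.23, 2.13 and 2.63 CPM with the control shRNA. It was the rarest of the 3 per length and rose most, by 1.49 ± 0.16 on the log2 scale (edgeR quasi-likelihood test, adjusted p = 3.54e-11). Even so it reached only 1.13 CPM per kilobase with the MYCN shRNA, beside 6.85 for ZBTB7A and 7.01 for ZBTB7B.

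ZBTB18 was by far the most abundant member per length. It encodes RP58, a repressor needed for neuronal differentiation in the mouse cortex. It had 444.9, 450.3 and 444.5 CPM with the MYCN shRNA, against 451.7, 441.9 and 477.7 CPM with the control shRNA. The groups overlapped, and the log2 fold change was -0.03 with a 95% interval of -0.11 to 0.05 (edgeR quasi-likelihood test, adjusted p = 0.438). With library sizes alone it was positive, at 0.15 (adjusted p = 3.52e-04). ZBTB18 stood at 114 CPM per kilobase with the MYCN shRNA and 117 in controls, and it held 23.0% of the summed CPM of the family in both groups. ZBTB20, a regulator of hippocampal and astrocyte development, was listed at 0 counts in all 6 libraries, with the same limits and the same condition as BCL6. ZBTB45 measured 6.33 ± 0.40 CPM against 6.28 ± 0.76 CPM in controls and did not pass (adjusted p = 0.953).

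**Figure D4:**
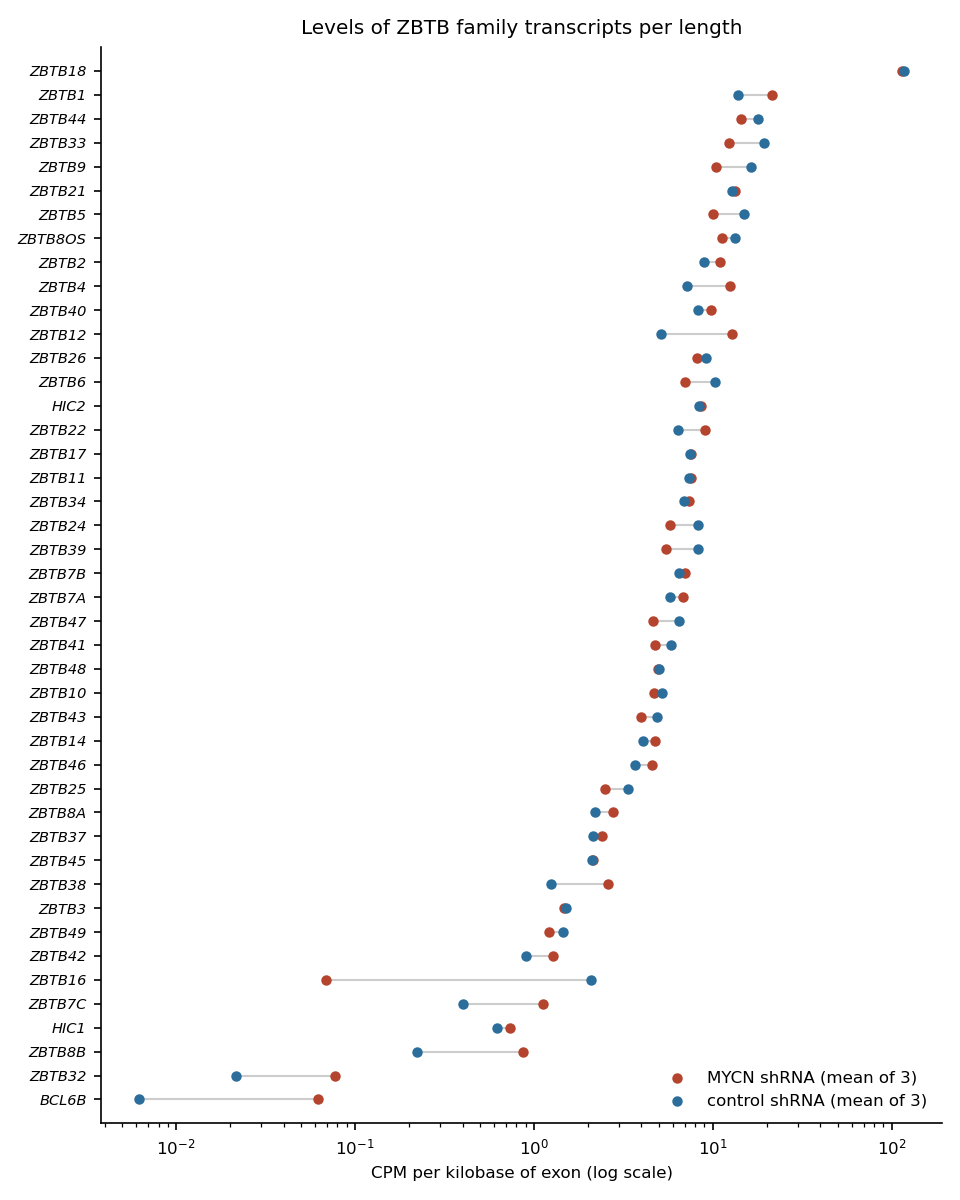
Level per length of the 44 members with counts in both groups, in CPM per kilobase of GENCODE 29 coding-transcript exon on a log axis, as the mean of 3 MYCN shRNA libraries (red) and of 3 control shRNA libraries (blue), joined by a grey line. ZBTB18 lies far above the rest at 114 and 117, and ZBTB16 has the longest line among tested genes.

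Most of the family lay well below ZBTB18. ZBTB1 followed it, with 21.6 CPM per kilobase with the MYCN shRNA and 13.9 in controls, and then ZBTB44, with 14.4 and 17.8. ZBTB44 had 135.8, 146.4 and 138.1 CPM with the MYCN shRNA, against 174.0, 167.2 and 180.8 CPM with the control shRNA. It fell by 0.31 ± 0.042 on the log2 scale (adjusted p = 9.53e-09), with no overlap between the groups. The summed level of all 46 members was 1917 to 1951 CPM with the MYCN shRNA and 1930 to 2028 CPM in controls, ranges that overlap.

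Of the members that bind telomeric repeats, 1 rose, 1 fell and 1 did not pass. ZBTB40 rose by 0.25 ± 0.047, with 88.0 ± 1.4 CPM against 74.3 ± 3.3 CPM in controls (SD, n = 3 each; adjusted p = 1.25e-05). ZBTB10 had a fitted change of -0.16 ± 0.056 on the log2 scale (adjusted p = 0.00973), which was 0.02 with library sizes alone and lost the call without MYCN shRNA replicate 1 (adjusted p = 0.0763). ZBTB48, which encodes the telomere length regulator TZAP, measured 11.4 ± 0.55 CPM against 11.5 ± 1.6 CPM and did not pass (log2 fold change -0.02, 95% interval -0.23 to 0.19).

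ZBTB24, which activates CDCA7 and is mutated in the immunodeficiency, centromeric instability and facial anomalies syndrome, fell. Its window with an E-box is printed above. It had 31.5, 31.4 and 33.1 CPM with the MYCN shRNA, against 46.7, 44.4 and 45.6 CPM with the control shRNA, a log2 fold change of -0.51 ± 0.058 (edgeR quasi-likelihood test, adjusted p = 1.76e-10). The groups did not overlap, and 5.53% of its exonic bases are shared with MICAL1 on the same strand. Of 4 genes listed with it, 3 fell and 0 rose, where 37.9% of all tested genes fell and 38.0% rose: CDCA7 stood at 87.8 ± 1.8 CPM against 183 ± 10.4 CPM in controls, DNMT1, the maintenance methyltransferase, fell by 0.46, and HELLS, the remodeller that CDCA7 recruits, by 0.25, a call lost with library sizes alone (-0.07, adjusted p = 0.0958). DNMT3B, the de novo methyltransferase mutated in the same syndrome, had a log2 fold change of -0.05 and did not pass (adjusted p = 0.496).

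Among the 20 members outside these roles, 7 rose, 9 fell and 4 did not pass, where 38.0% of all tested genes rose and 37.9% fell. ZBTB8B, at chromosome 1 (32465069 to 32496686, plus strand, GRCh38), had 10.4, 11.9 and 11.2 CPM with the MYCN shRNA, against 2.89, 2.67 and 2.98 CPM with the control shRNA. It was the member with the highest log2 fold change, at 1.97 ± 0.13 (edgeR quasi-likelihood test, adjusted p = 5.51e-17), from a low level in controls. Its neighbours on chromosome 1 moved less: ZBTB8A, 42740 bases away on the same strand, rose by 0.33 ± 0.082, and ZBTB8OS fell by 0.24 ± 0.070 (adjusted p = 0.00210), a call that was lost with library sizes alone (adjusted p = 0.440). An annotated readthrough gene shares 11.5% of the exonic bases of ZBTB8B and 25.2% of those of ZBTB8A, so their counts are not fully separable.

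ZBTB12 had 25.0, 23.4 and 23.9 CPM with the MYCN shRNA, against 9.32, 10.1 and 9.71 CPM with the control shRNA. The groups lay far apart, and it rose by 1.31 ± 0.085 on the log2 scale (adjusted p = 8.68e-18). Its gene lies in the major histocompatibility region of chromosome 6 (31899607 to 31901992, minus strand), where ZBTB22 and ZBTB9 also lie. ZBTB22 rose by 0.51 ± 0.074 (adjusted p = 6.47e-08), whereas ZBTB9 fell. ZBTB9 had 26.8, 30.3 and 28.4 CPM with the MYCN shRNA, against 43.2, 44.4 and 45.8 CPM with the control shRNA, a log2 fold change of -0.64 ± 0.061 (adjusted p = 1.36e-12). The ZBTB9 value is uncertain, since reads from its exons cannot be assigned to ZBTB9 alone.

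ZBTB39 had 34.8, 31.2 and 35.2 CPM with the MYCN shRNA, against 50.2, 48.7 and 54.5 CPM with the control shRNA. It fell by 0.60 ± 0.060 on the log2 scale (edgeR quasi-likelihood test, adjusted p = 6.28e-12), with a gap between the groups wider than the spread within either. ZBTB6 fell by 0.55, and ZBTB26, its neighbour 2235 bases away on the same strand of chromosome 9, by 0.17. ZBTB26 had a log2 fold change of 0.01 with library sizes alone and lost the call without MYCN shRNA replicate 2 (adjusted p = 0.0573). The other pair on chromosome 9, ZBTB43 and ZBTB34, had log2 fold changes of -0.30, which passed, and 0.09, which did not. ZBTB47 fell by 0.49 and ZBTB41 by 0.31. With library sizes alone ZBTB41 (adjusted p = 0.0563) and ZBTB43 (adjusted p = 0.0983) no longer passed.

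The other members of this group that rose were ZBTB42, ZBTB37 and ZBTB14. ZBTB42 had a log2 fold change of 0.50 ± 0.16 and ZBTB14 of 0.23 ± 0.092, each resting on single libraries. ZBTB42 was at 0.31 without control shRNA replicate 3 (adjusted p = 0.0766), and ZBTB14 at 0.13 without MYCN shRNA replicate 2 and 0.14 without control shRNA replicate 3 (adjusted p = 0.243 and 0.193). ZBTB14 also missed the threshold by DESeq2 (adjusted p = 0.0766). ZBTB3, ZBTB11, ZBTB21 and ZBTB34 did not pass, with log2 fold changes from -0.03 to 0.09. ZBTB34 passed without control shRNA replicate 3 (0.13, adjusted p = 0.0342) and with upper quartile factors (adjusted p = 0.0307), and ZBTB11, ZBTB21 and ZBTB34 passed with library sizes alone, at 0.22, 0.24 and 0.28.

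Genes related to the family by structure also went in both directions. Of 4 BTB zinc finger genes with other symbols, ZNF131 rose by 0.35, MYNN, which encodes myoneurin, fell by 0.65, and PATZ1 and GZF1 did not pass. Among 38 BTB-Kelch genes in the table, most of which are adaptors of the CUL3 ubiquitin ligase, 31 were tested, 11 rose and 15 fell (35.5% and 48.4%, beside 38.0% and 37.9% of all tested genes), with KLHL42 at 1.21 and KLHL22 at 1.28 against KLHL12 at -0.67 and KLHL23 at -0.46 on the log2 scale. Their median was -0.02, which turned to 0.16 with library sizes alone. Of 472 tested C2H2 zinc finger genes named ZNF or ZFP, 183 rose and 123 fell (38.8% and 26.1%, beside 38.0% and 37.9% of all tested genes), with a median of 0.10 that was 0.28 with library sizes alone, and ZNF483 (1.89) and ZNF367 (1.02) against ZFP91 (-1.01) and ZNF385A (-1.20) had the smallest p-values in each direction.

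No corepressor that BTB domains recruit was called at 2-fold or more. Of 26 listed genes, all 26 tested, 8 rose and 9 fell, or 30.8% and 34.6% beside the background of 38.0% and 37.9%, and their log2 fold changes ran from -0.51 to 0.62 with a median of 0.04. SIN3A, a scaffold of histone deacetylase complexes, rose by 0.62 ± 0.044 and HDAC1, a histone deacetylase, by 0.44 ± 0.039. MTA1, a subunit of the NuRD complex, fell by 0.51 ± 0.044 and CTBP2, a corepressor, by 0.31 ± 0.040 (edgeR quasi-likelihood test, adjusted p at most 5.71e-09 for these 4 genes). NCOR1 and BCOR, bound by the BCL6 BTB domain, did not pass, at 0.07 and 0.05. With library sizes alone NCOR1 and BCOR passed, at 0.25 and 0.23.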

How the data were processed

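The authors deposited estimated counts per gene symbol (expected counts that need not be whole), not scaled between libraries. Per the submitters' processing notes, reads were placed on GRCh38. The aligner, counter, annotation and strand setting: not given in the sources used here. Of 17035 rows, 22 held no values, and 0 columns of values were left unmapped. Counts were rounded, filtered with filterByExpr (minimum 10 counts) and tested over 12819 genes with edgeR 4.0.16 (R 4.3.3), using its quasi-likelihood test, robust dispersions, TMM scaling and Benjamini-Hochberg adjustment at 0.05. Standard errors came from the F statistic, and 95% intervals from these and the test's degrees of freedom. Exact counting intervals and limits at 3 counts cover counting error only. Levels per length used the union of exons of basic protein-coding transcripts in GENCODE 29.

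The members, lists and named genes were chosen with earlier results of these data known. Full values are given for ZBTB17, the BCL6 and HIC genes, ZBTB16, the methylated DNA readers, ZBTB7A, ZBTB18 and ZBTB20, the 5 highest and 5 lowest called members and the 3 most abundant per length, and for each other list the 2 genes with the smallest p in each direction. ZBTB2, ZBTB24, ZBTB25, MYC, MAX, SIRT1, HELLS, DNMT3B, CDKN2B, NCOR1, BCOR, PATZ1 and GZF1 were added after their values were seen, as were the promoter search and its letters. Replicate libraries differed by more than counting noise (chi-square per degree of freedom 1.73 to 4.23). That cannot tell separate cultures from parallel preparations of 1 culture, so each counted as 1 sample on the word of the series text. The common coefficient of variation between replicates in the fit was small, at 3.345%. The p-values set the difference between groups against the spread between these libraries, estimated with information shared across genes. The fit was tested on simulated data. A few listed genes are not reported here. Alternatives were DESeq2 1.42.0, limma-voom (limma 3.58.1), other scalings and filters, a 1.5-fold minimum, a replicate block and leaving out each library. Tables came from pandas 2.3.3 and scipy 1.17.1 (numpy 2.4.6, Python 3.11.15), and figures from matplotlib 3.10.9.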

Additional observations from a re-analysis of the deposited data

How the results depend on the processing

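Of the 30 called ZBTB family members, 23 kept their call and direction in all 14 alternatives without a fold minimum. Library sizes as the only scaling ended 5 calls and leaving out a library ended those of 4 members. With library sizes alone 23 members were called higher, the median of the members was 0.206, and the log2 fold changes of ZBTB10, ZBTB18 and ZBTB26 turned to 0.023, 0.148 and 0.009, and those of ZBTB3 and ZBTB48, not called in either, to 0.148 and 0.163; this scaling moved the median of all tested genes to 0.186. Upper quartile factors gave a median of 0.063. Against a 1.5-fold minimum, 5 members were called higher and 1 lower, 1650 and 1282 of all tested genes, and 16 and 5 genes of the other lists. When each library was left out, the median of the members ranged from 0.021 to 0.054, the members called higher from 14 to 16 and those called lower from 14 to 15. The fit with a replicate block called 15 members higher and 15 lower. Deviations of libraries with the same number correlated at 0.120, 0.104 and 0.026. Because the last was not over 0.1, the numbers were not taken as pairs, although 5 of 6 libraries correlated best with their own number. Low counts limit BCL6, BCL6B, ZBTB20 and ZBTB32, for which differences were not detectable or rest on few counts.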
